A study of Mus musculus with 16 samples.

Results

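This account compares livers of mice on a high-fat diet with livers of mice on a control diet when both received perfluorooctanoic acid (PFOA), a persistent fluorinated surfactant. The groups were chosen by the labels of diet and treatment: 4 mice labelled high-fat diet with PFOA (HFD_PFOA) and 4 labelled control diet with PFOA (CD_PFOA), together 8 of the 16 mice of the series. All were C57BL/6 mice aged 29 to 30 weeks, fed their diet for 16 weeks and then treated for 8 weeks, so both groups carry the PFOA treatment and differ by diet. The remaining 8 mice, 4 on each diet (CD_vehicle and HFD_vehicle), received vehicle and give the diet difference without PFOA. According to the design of the series, the high-fat diet was meant to give fatty livers before the treatment began. The labels used here state neither sex, nor diet composition, nor PFOA dose.

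A high-fat diet is known to load hepatocytes with triglyceride and cholesterol. Sterol excess is known to turn down the genes of cholesterol synthesis through the transcription factor SREBP2. Long feeding is known to bring macrophages into the liver and to raise collagen production there. PFOA activates PPARA, the nuclear receptor that switches on genes of fatty acid breakdown in liver, and also activates the xenobiotic receptor CAR. Interferons, the cytokines of antiviral defence, induce a large set of genes through STAT and IRF transcription factors, many of them also active at a low level in uninfected tissue.

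RNA was sequenced from whole flash-frozen liver, and the 8 libraries held 23485718 to 25671905 counts each (14456524 to 25778125 over all 16). The table lists 53465 genes, of which 14998 passed the filter on low counts and were tested. Levels below are scaled counts relative to a library of 1e+06 counts (CPM), given per mouse or as mean ± SD over 4 mice, and differences are log2 fold changes of HFD minus CD ± SE. A gene is said to be called when its adjusted p in edgeR's quasi-likelihood test was under 0.05. Hepatocyte markers were abundant in every PFOA library, with a summed level of 67414 to 84237 CPM in CD_PFOA and 59716 to 72097 CPM in HFD_PFOA. In whole liver, fewer cells of a type and less RNA per cell cannot be told apart. On a principal component analysis of the 8 libraries, the first component (22.3% of the variance) placed HFD_PFOA at −36.5 to −14.7 and CD_PFOA at 6.12 to 56.5. The second (20.6%) set CD_PFOA mouse 1 apart at −74.6, with the other 7 at 4.94 to 24.2, so counts below are also given without it where they moved.

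Few genes were called between the diets under PFOA in the fit of all 16 libraries. The largest fall among the called genes was in Smad9, a transcription factor of bone morphogenetic protein signalling. The called genes that rose were Ifih1, Parp14, Samd9l, AW112010, Gramd1b, Tpm2 and Hbb-bs. Of these, Ifih1 is on the list of interferon-stimulated genes used below. The other called gene that fell was Hs6st1. In all, 9 of 14998 genes were called (0.0600%), 7 of them higher on the high-fat diet (0.0467%) and 2 lower (0.0133%), and 3 of the 9 differed at least 2-fold. At an unadjusted p under 0.05 there were 1665 genes (11.1%), 879 higher (5.86%) and 786 lower (5.24%). The 4 values of one diet lay wholly above or below those of the other for 1152 genes (7.68%). Under vehicle the same fit called 1561 genes (10.4%), 779 higher (5.19%) and 782 lower (5.21%), and 2170 genes showed no overlap (14.5%). Counts of calls within the gene lists below are to be read against these shares. The median size of the log2 difference over all genes was 0.18 under PFOA and 0.25 under vehicle. The number of calls depended on the method: DESeq2 on the same genes called 179, and edgeR fitted to the 8 PFOA libraries alone called 129 of 13968. Leaving out 1 mouse at a time gave 1 to 22 calls, the lowest without HFD_PFOA mouse 4 or without CD_PFOA mouse 4 and the highest without CD_PFOA mouse 1.

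**Figure D1:**
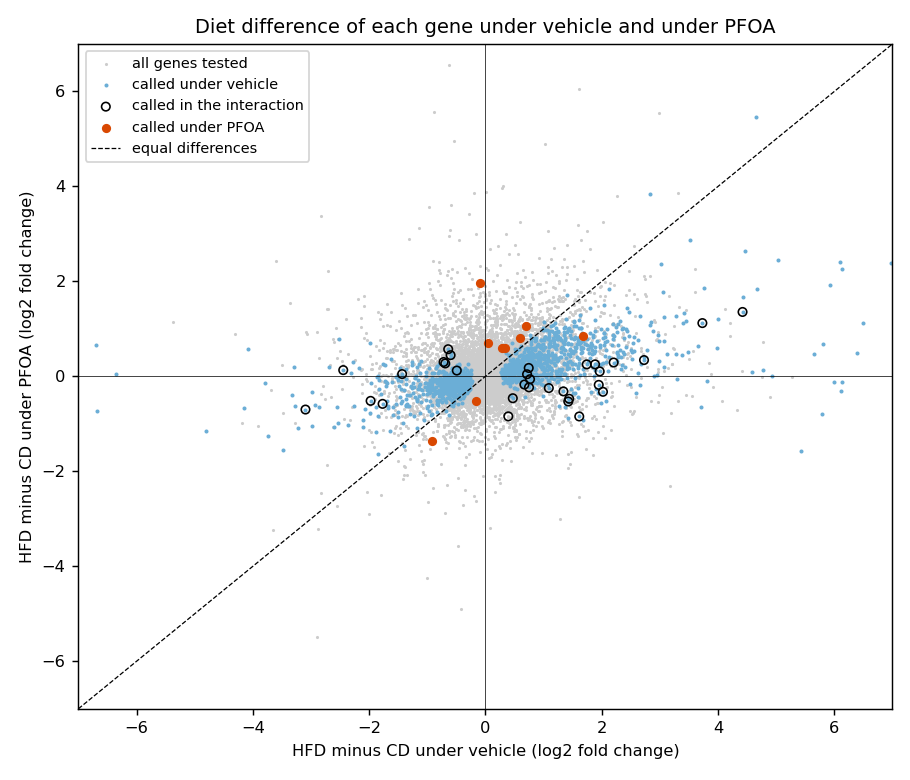
Each point is 1 of 14998 genes, with its log2 fold change between the diets under vehicle on the horizontal axis and under PFOA on the vertical axis; blue points were called under vehicle, orange points under PFOA and ringed points in the interaction, and the dashed line marks equal differences. The 1561 genes called under vehicle spread widely along the horizontal axis and less along the vertical one, and the 9 genes called under PFOA include both genes near the dashed line and genes near 0 on the horizontal axis.

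Smad9 encodes one of the receptor-activated SMAD proteins that carry signals of bone morphogenetic proteins to the nucleus. In GENCODE M21 on GRCm38, Smad9 (ENSMUSG00000027796.2) lies on chromosome 3 at 54755582 to 54801257 on the plus strand. Its level was 18.2, 19.4, 17.3 and 19.7 CPM in the HFD_PFOA mice and 49.9, 60.5, 45.5 and 36.1 CPM in the CD_PFOA mice. Every high-fat mouse was below every control-diet mouse. The fall was 1.36 ± 0.16 on the log2 scale (edgeR adjusted p = 6.10e-04), and it was the only call that remained in all 8 fits that left out 1 PFOA mouse. Under vehicle, Smad9 also fell, from 12.5 ± 1.91 CPM on the control diet to 6.59 ± 1.33 CPM on the high-fat diet (log2 fold change −0.92 ± 0.17, edgeR adjusted p = 0.00156). The test of the difference between these 2 values was not past the threshold (interaction −0.45 ± 0.23, edgeR adjusted p = 0.489). The same direction was seen for Hamp, the iron hormone hepcidin and a textbook target of bone morphogenetic protein signalling, which was chosen after its values were seen. Hamp measured 47.9, 264, 249 and 161 CPM in HFD_PFOA and 436, 1051, 497 and 269 CPM in CD_PFOA, without overlap, and its difference of −1.64 ± 0.44 missed the threshold (edgeR adjusted p = 0.148). Under vehicle Hamp differed by −1.84 ± 0.44 and was called (edgeR adjusted p = 0.0113). The interaction for Hamp was 0.20 ± 0.61 (edgeR adjusted p = 0.949). On the control diet the means of the genes moved in opposite directions between vehicle and PFOA. Smad9 averaged 12.5 ± 1.91 CPM in CD_vehicle and 48.0 ± 10.1 CPM in CD_PFOA, and Hamp 810 ± 348 CPM and 563 ± 339 CPM. Whether bone morphogenetic protein signalling changed was not tested.

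Hs6st1, which adds sulfate to heparan sulfate chains, was the other called gene that fell. Hs6st1 (ENSMUSG00000045216.7, chromosome 1 at 36068400 to 36106446, plus strand) measured 73.6, 70.0, 93.5 and 77.2 CPM in HFD_PFOA and 101, 113, 117 and 117 CPM in CD_PFOA. The groups did not overlap, and the fall was 0.51 ± 0.09 on the log2 scale (edgeR adjusted p = 0.0485). Under vehicle the difference was −0.16 ± 0.09 and was not called. This call was lost when libraries were scaled by their totals alone, and it held in 2 of the 8 fits that left out 1 mouse.

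Ifih1 encodes MDA5, a cytosolic sensor of double-stranded RNA. The gene Ifih1 (ENSMUSG00000026896.14, chromosome 2 at 62595798 to 62646255, minus strand) measured 38.1, 36.6, 39.0 and 36.8 CPM in HFD_PFOA and 23.1, 24.5, 31.0 and 20.7 CPM in CD_PFOA. It rose by 0.60 ± 0.10 on the log2 scale (edgeR adjusted p = 0.0305). Parp14, a mono-ADP-ribosyltransferase, lies on chromosome 16 at 35832874 to 35871544 on the minus strand (ENSMUSG00000034422.14). The level of Parp14 was 38.1, 43.0, 42.3 and 42.4 CPM in HFD_PFOA and 27.3, 29.9, 20.2 and 23.9 CPM in CD_PFOA, a rise of 0.71 ± 0.11 (edgeR adjusted p = 0.0221). In both genes all 4 high-fat mice were higher than all 4 control-diet mice.

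Samd9l is an interferon-induced gene whose product restrains viruses and cell growth. Samd9l (ENSMUSG00000047735.14, chromosome 6 at 3372257 to 3399572, minus strand) measured 26.2, 38.1, 35.9 and 36.4 CPM in HFD_PFOA and 17.9, 20.7, 20.8 and 19.1 CPM in CD_PFOA. HFD_PFOA mouse 1 was the lowest of its group and still above every CD_PFOA mouse, and the rise was 0.80 ± 0.14 (edgeR adjusted p = 0.0333). AW112010 is annotated as a long non-coding RNA and is known to be induced in immune cells by interferon and bacterial products. It lies on chromosome 19 at 11047612 to 11055808 on the minus strand (ENSMUSG00000075010.4 in the counted annotation). AW112010 measured 44.4, 37.4, 41.2 and 44.5 CPM in HFD_PFOA and 27.7, 30.9, 26.6 and 24.8 CPM in CD_PFOA, a rise of 0.60 ± 0.10 (edgeR adjusted p = 0.0221).

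In each of these 4 genes the CD_PFOA mean was the lowest of the 4 groups. Parp14 averaged 39.8 ± 4.29 CPM in CD_vehicle, 41.0 ± 3.23 CPM in HFD_vehicle and 41.5 ± 2.25 CPM in HFD_PFOA, against 25.3 ± 4.20 CPM in CD_PFOA. For Ifih1 the same 4 means were 34.7 ± 1.10, 42.1 ± 2.85, 37.6 ± 1.12 and 24.9 ± 4.40 CPM. Under vehicle the diet difference was 0.04 ± 0.11 for Parp14 and 0.28 ± 0.10 for Ifih1, neither called, while AW112010 (0.33 ± 0.10, edgeR adjusted p = 0.0319) and Samd9l (0.60 ± 0.14, edgeR adjusted p = 0.00933) rose there too. None of the 9 genes called under PFOA was called in the interaction, with edgeR adjusted p from 0.0743 to 0.797. So the absence of a call under vehicle does not show that the diet acted differently there. Without 1 mouse, Ifih1 and Samd9l were called in 1 of 8 fits each, Parp14 in 3 and AW112010 in 4, and all 4 kept their sign in all 8.

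Gramd1b encodes Aster-B, a protein of the endoplasmic reticulum that moves cholesterol in from the plasma membrane. Gramd1b (ENSMUSG00000040111.16, chromosome 9 at 40293233 to 40531383, minus strand) measured 38.7, 38.4, 45.9 and 47.9 CPM in HFD_PFOA and 22.4, 27.5, 24.6 and 19.8 CPM in CD_PFOA. The rise was 0.86 ± 0.14 (edgeR adjusted p = 0.0221). Under vehicle it rose from 6.75 ± 1.48 to 21.7 ± 1.67 CPM (log2 fold change 1.69 ± 0.15), so the control-diet mice on PFOA, at 23.6 CPM, were near the level of the high-fat mice on vehicle. The interaction was −0.83 ± 0.20 and missed the threshold (edgeR adjusted p = 0.0967).

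Tpm2 encodes beta-tropomyosin, which lines actin filaments in contractile and other cells. Tpm2 (ENSMUSG00000028464.16, chromosome 4 at 43514711 to 43523765, minus strand) measured 27.2, 23.3, 17.7 and 19.2 CPM in HFD_PFOA and 12.8, 9.23, 11.9 and 8.18 CPM in CD_PFOA, without overlap. It rose by 1.05 ± 0.18 (edgeR adjusted p = 0.0305), and under vehicle by 0.71 ± 0.19 (edgeR adjusted p = 0.0212). Without 1 mouse, the PFOA call held in 2 of 8 fits for Tpm2, and in 3 of 8 each for Gramd1b and Hbb-bs.

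Hbb-bs encodes an adult beta-globin chain of red blood cells. Hbb-bs (ENSMUSG00000052305.6, chromosome 7 at 103826534 to 103828096, minus strand) measured 10.9, 20.9, 9.88 and 16.6 CPM in HFD_PFOA and 4.28, 2.19, 4.34 and 4.17 CPM in CD_PFOA. The rise of 1.96 ± 0.34 was the largest of the calls (edgeR adjusted p = 0.0305), and under vehicle the difference was −0.10 ± 0.33. Its near-identical copy Hbb-bt, with which reads cannot be fully told apart, differed by 1.79, and the alpha-globin copies Hba-a1 and Hba-a2 by 1.08 and 1.18, none of them called. Alas2, the erythroid enzyme of haem synthesis, differed by −0.15. Of the 8 erythroid markers listed, 5 were tested and 1 was called, and their summed level was 92.7 to 117 CPM in HFD_PFOA and 87.5 to 110 CPM in CD_PFOA. Most of that sum was Alas2, at 71.8 to 90.7 CPM and 78.6 to 98.6 CPM. The median difference of the list was 1.18, and 4 of the 5 were higher at an unadjusted p under 0.05, beside 5.86% of all genes. The part of blood left in the tissue in the globin result was not tested.

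**Figure D2:**
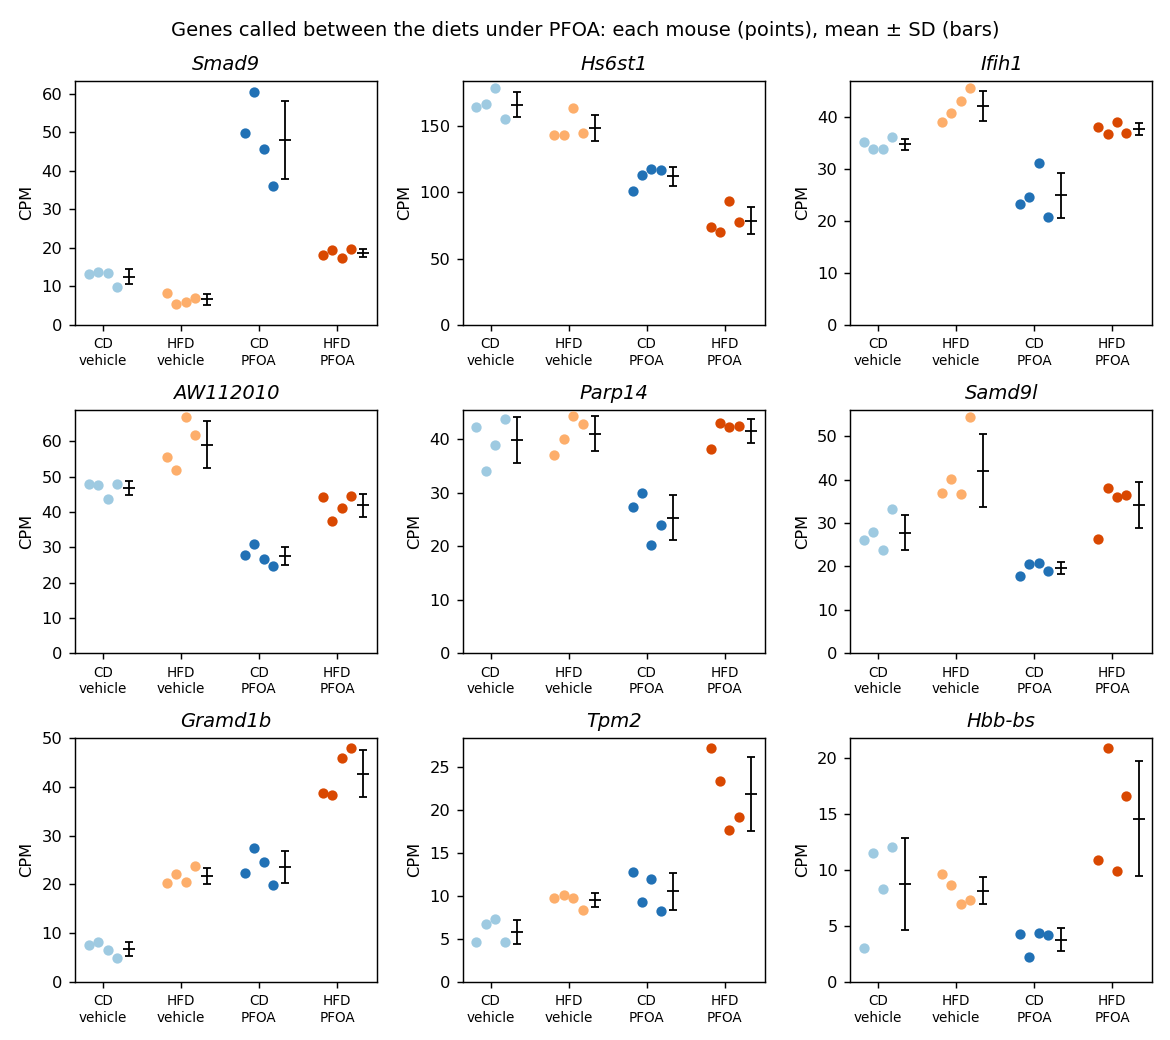
CPM of the 9 genes called between the diets under PFOA, with 1 point per mouse in each of the 4 groups and the mean ± SD of 4 mice beside the points; each vertical axis starts at 0. In all 9 panels the HFD_PFOA and CD_PFOA mice do not overlap, and in Ifih1, Parp14, Samd9l and AW112010 the CD_PFOA mean is the lowest of the 4 groups.

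To show the sequence context of the interferon list, which is described next, the promoters of 2 called genes and of 1 other gene of the list are printed here from RefSeq on build GRCm38.p6, as 250 bases before and 50 after the annotated start, 5′ to 3′ on the strand of the gene. Capitals mark matches to the core of the interferon-stimulated response element, searched on both strands as GAAA, any 2 bases, then GAAA. Ifih1 is a called gene with a match 32 bases after its start, Samd9l is a called gene shown for comparison, and Isg15, a ubiquitin-like antiviral modifier, is a member of the interferon list with 3 overlapping matches, which begin 78, 72 and 66 bases before its start.
Ifih1, chr2:62646206-62646505, minus strand: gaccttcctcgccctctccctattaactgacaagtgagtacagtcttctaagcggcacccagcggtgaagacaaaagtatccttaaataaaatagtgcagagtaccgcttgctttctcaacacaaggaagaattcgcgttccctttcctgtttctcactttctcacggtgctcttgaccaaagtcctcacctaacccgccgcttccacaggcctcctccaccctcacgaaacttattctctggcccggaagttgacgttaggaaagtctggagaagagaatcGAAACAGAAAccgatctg
Samd9l, chr6:3399522-3399821, minus strand: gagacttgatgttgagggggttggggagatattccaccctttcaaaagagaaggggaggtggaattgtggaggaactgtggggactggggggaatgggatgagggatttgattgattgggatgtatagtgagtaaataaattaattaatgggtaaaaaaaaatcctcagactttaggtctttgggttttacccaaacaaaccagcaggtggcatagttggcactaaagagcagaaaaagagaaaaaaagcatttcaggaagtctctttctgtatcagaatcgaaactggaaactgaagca
Isg15, chr4:156200769-156201068, minus strand: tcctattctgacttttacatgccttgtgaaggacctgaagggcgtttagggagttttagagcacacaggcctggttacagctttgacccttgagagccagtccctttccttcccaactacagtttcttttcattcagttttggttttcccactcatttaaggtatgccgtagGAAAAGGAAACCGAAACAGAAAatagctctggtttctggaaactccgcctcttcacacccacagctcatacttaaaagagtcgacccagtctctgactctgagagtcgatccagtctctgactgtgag

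The window of Samd9l holds no match, which says only that these letters are not in it. At least 1 promoter of the same length held a match in 1079 of 27025 genes with a promoter entry (3.99%). The same was true of 13 of the 24 listed interferon-stimulated genes with an entry (54.2%). Among the 9 called genes, 7 had an entry and 1 of these a match. The matches describe the sequence and do not show that a factor bound there.

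Across the wider list of interferon-stimulated genes, values leaned towards the high-fat diet under PFOA. Of 31 members tested, 1 was called (Ifih1), 21 had an unadjusted p under 0.05 in the higher direction and none in the lower, and 30 had a positive difference. The shares to read this against are 5.86% of all genes at that unadjusted p in the higher direction and 0.0467% called higher. The median difference of the list was 0.56 under PFOA and 0.09 under vehicle, beside 0.00 and −0.03 over all genes tested, and 0 of the 31 were called under vehicle and 0 in the interaction. In each mouse, the median of the members centred on their mean over the 16 libraries was 0.26, 0.31, 0.02 and 0.12 in HFD_PFOA and −0.55, −0.37, −0.21 and −0.34 in CD_PFOA. All 4 high-fat mice were above all 4 control-diet mice. The vehicle mice ranged from −0.28 to 0.47 on the control diet and from 0.19 to 0.29 on the high-fat diet. CD_PFOA had the lowest group mean, and CD_vehicle mouse 2, at −0.28, lay within its range. Without CD_PFOA mouse 1 the members at unadjusted p under 0.05 numbered 18 and the median was 0.56, and without HFD_PFOA mouse 1 they numbered 19 with a median of 0.55.

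Several members of the list show the pattern mouse by mouse. Irf7, the transcription factor that amplifies interferon production, measured 27.3, 28.9, 26.6 and 22.4 CPM in HFD_PFOA and 13.7, 16.4, 15.2 and 14.5 CPM in CD_PFOA. Its difference of 0.81 ± 0.17 missed the threshold (edgeR adjusted p = 0.0843) although the groups stood far apart. Ifit3, an antiviral RNA-binding protein, measured 7.71, 8.76, 5.06 and 7.72 CPM against 2.74, 4.22, 3.03 and 2.70 CPM. Rsad2, which encodes viperin, measured 9.28, 18.01, 7.97 and 8.66 CPM against 6.48, 6.21, 4.09 and 4.33 CPM. In both genes the diets did not overlap under PFOA. Psmb9, a subunit of the immunoproteasome that trims peptides for antigen presentation, measured 10.1, 9.25, 6.92 and 10.8 CPM against 5.90, 4.31, 4.22 and 5.07 CPM. Isg15, whose promoter is printed above, measured 5.04, 3.60, 2.30 and 1.88 CPM against 0.997, 2.15, 0.843 and 1.80 CPM, so the groups overlapped. The smallest log2 differences of the list were in Mx2 (−0.04), Iigp1 (0.06), Stat2 (0.11) and Ifi35 (0.13). Lymphocyte markers were measured beside these. The summed markers of T and NK cells were 16.8 to 28.4 CPM in HFD_PFOA and 13.4 to 17.1 CPM in CD_PFOA, with 0 of 16 called and ranges that overlapped. By the per-mouse median used for the interferon list, the T and NK cell list did not overlap, at 0.25, 0.48, 0.16 and 0.57 in HFD_PFOA and −0.35, 0.13, 0.04 and −0.48 in CD_PFOA. Its median difference was 0.58, beside 0.56 for the interferon list. Cd3d, Trbc1 and Klrb1c of that list were too low to be tested. The B cell list had a median difference of 0.79, with 10 of 12 positive and 0 called. For class II antigen presentation the median was 0.80, with 9 of 9 positive, 4 of them at an unadjusted p under 0.05, and 0 called. The per-mouse medians of these further lists overlapped between the diets. The part of lymphocytes and antigen-presenting cells in the interferon values was not tested.

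**Figure D3:**
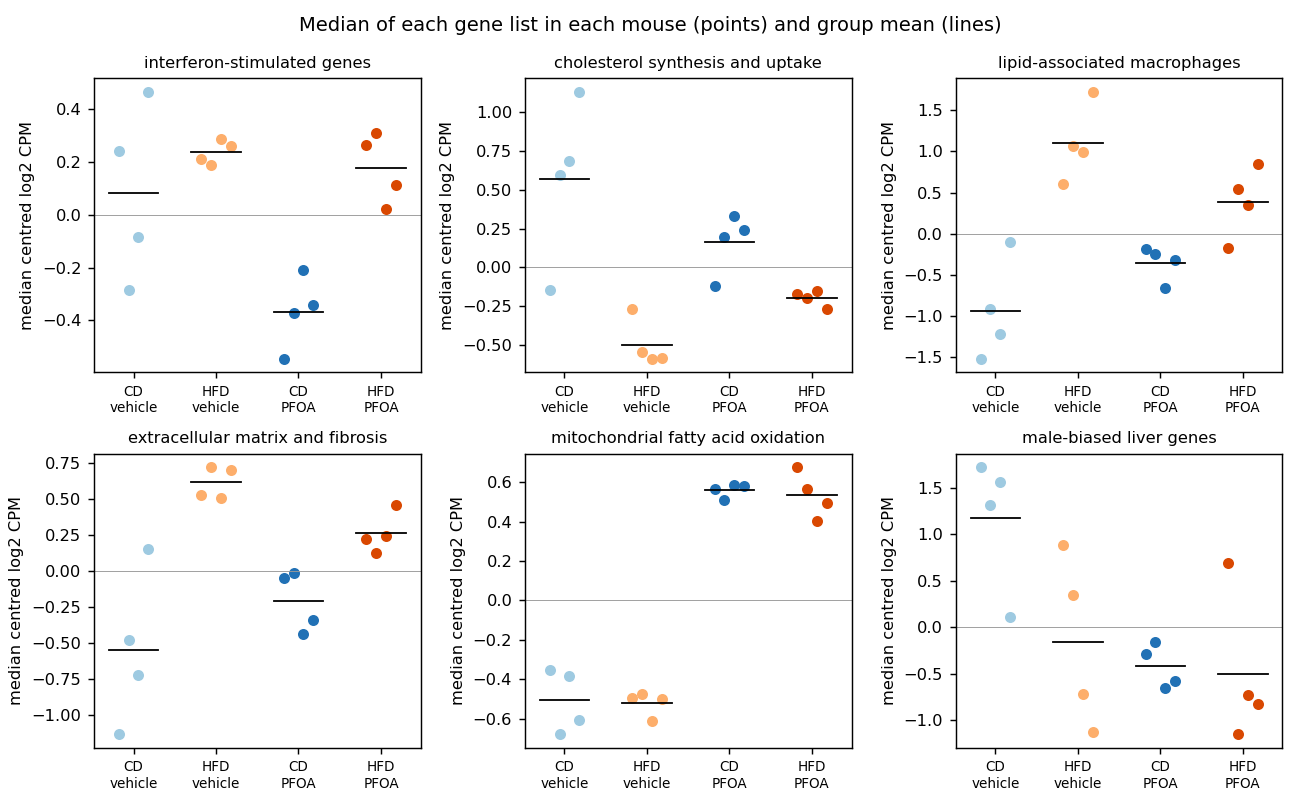
Median over the members of 6 gene lists in each mouse, as log2 CPM centred on the mean of each gene over 16 libraries, with 1 point per mouse and a line at the group mean; vertical axes differ between panels. The HFD_PFOA and CD_PFOA mice do not overlap for interferon-stimulated genes, cholesterol synthesis and matrix genes, they overlap for mitochondrial fatty acid oxidation, and HFD_PFOA mouse 1 stands apart at 0.69 in the male-biased genes.

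The diet difference measured under vehicle was mostly small under PFOA. Of the 1561 genes called under vehicle, 1309 (83.9%) had the same direction under PFOA, beside 62.2% of all genes, and the 2 comparisons share no library. At an unadjusted p under 0.05, 445 of them (28.5%) went the same way, 13 (0.833%) the opposite way and 1103 neither. Without CD_PFOA mouse 1 the first of these counts was 484, and without HFD_PFOA mouse 1 it was 464. Smad9, Gramd1b, Tpm2, AW112010 and Samd9l were called under both, all in the same direction. The 779 genes higher on the high-fat diet under vehicle had a median difference of 0.99 there and 0.29 under PFOA, and the 782 lower genes −0.55 and −0.15. The larger vehicle values are partly fixed by the choice of genes on those values. Set against CD_vehicle, whose libraries all 3 values share, the 779 genes stood at a median of 1.02 in HFD_vehicle, 0.61 in CD_PFOA and 0.97 in HFD_PFOA, and the 782 genes at −0.53, −0.38 and −0.55. When libraries were scaled by their totals alone, the vehicle comparison gave 2340 calls, 2052 higher and 288 lower, and that scaling moved the median log2 difference of all genes by 0.22 there and by 0.09 under PFOA. Under PFOA it gave 12 calls, 11 higher and 1 lower.

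Whether the diet difference itself differed between PFOA and vehicle was tested by the interaction, which called 31 genes (0.207%), 10 with a higher (0.0667%) and 21 with a lower (0.140%) difference under PFOA. Of these 31, 30 were called under vehicle and 0 under PFOA, and in 30 the difference was smaller under PFOA, with Arhgef26 as the exception (0.39 under vehicle and −0.84 under PFOA). In 22 of them the log2 difference under PFOA was under 0.5 in size, and in 19 it had the opposite sign. The interaction is computed from these same differences, and the fit called 1561 genes under vehicle and 9 under PFOA. These counts are therefore partly fixed by the choice of genes. With library totals the interaction gave 44 calls, 6 higher and 38 lower. Without CD_vehicle mouse 4 the number was 352, and over all fits that left out 1 mouse it ran from 13 (without HFD_vehicle mouse 4 or HFD_PFOA mouse 4) to 352. Without CD_vehicle mouse 1 it was 106.

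Several of the 31 are genes of lipid storage and uptake. Cidec, which enlarges lipid droplets, rose under vehicle from 18.1 ± 10.2 to 120 ± 15.8 CPM (log2 fold change 2.73 ± 0.29, edgeR adjusted p = 2.36e-05). With PFOA it measured 129, 143, 134 and 137 CPM in HFD_PFOA and 107, 106, 103 and 111 CPM in CD_PFOA, a difference of 0.34 ± 0.27. The PFOA groups did not overlap, and both were near the level of the high-fat mice on vehicle (interaction −2.38 ± 0.39, edgeR adjusted p = 0.0160). Lpl, the lipase that releases fatty acids from lipoproteins, went from 35.5 ± 12.5 to 131 ± 29.9 CPM under vehicle (1.89 ± 0.18). Under PFOA Lpl was far higher in both groups, at 576, 604, 571 and 580 CPM on the high-fat diet and 518, 487, 490 and 460 CPM on the control diet (0.25 ± 0.17, interaction edgeR adjusted p = 0.00971). Fabp5, a fatty acid carrier, fell under vehicle by 2.45 ± 0.29 on the log2 scale and stood at 13.4 ± 2.14 CPM in HFD_PFOA and 12.2 ± 4.31 CPM in CD_PFOA (interaction 2.58 ± 0.39, edgeR adjusted p = 0.00996).

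Genes of drug metabolism were also among the 31. Cyp3a11, the main drug-oxidizing P450 of mouse liver, rose with the high-fat diet under vehicle from 1105 ± 138 to 3697 ± 846 CPM (1.74 ± 0.13). Under PFOA it measured 5942, 5384, 5370 and 5300.5 CPM in HFD_PFOA and 4775, 4523, 4284 and 4879 CPM in CD_PFOA, a difference of 0.25 ± 0.13 (interaction −1.49 ± 0.19, edgeR adjusted p = 0.00244). Ephx1, the microsomal epoxide hydrolase, rose by 0.77 ± 0.09 under vehicle and differed by −0.06 ± 0.09 under PFOA (interaction edgeR adjusted p = 0.0132), where the sign depended on the scaling (0.03 with library totals). Cyp2b10, the classic target of CAR, rose under vehicle by 1.99 ± 0.44 at a low level of 1.18 ± 0.714 to 4.85 ± 3.49 CPM. With PFOA, Cyp2b10 measured 178, 254, 234.9 and 189 CPM on the high-fat diet and 413, 304, 257 and 286 CPM on the control diet, without overlap (−0.56 ± 0.30, not called), and its interaction missed the threshold (edgeR adjusted p = 0.0547).

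Other genes of the interaction have varied roles. Limch1, a regulator of non-muscle myosin, rose under vehicle from 0.559 ± 0.387 to 12.002 ± 2.23 CPM (4.42 ± 0.32). Under PFOA Limch1 measured 10.8, 9.33, 11.2 and 12.1 CPM in HFD_PFOA and 4.86, 4.10, 4.93 and 3.07 CPM in CD_PFOA, a difference of 1.36 ± 0.26 that missed the threshold (edgeR adjusted p = 0.0734) and was called by DESeq2 and in the fit of 8 libraries, and the interaction was called (edgeR adjusted p = 0.00328). Elovl2, which elongates polyunsaturated fatty acids, fell by 0.69 ± 0.11 under vehicle and differed by 0.27 ± 0.11 under PFOA (interaction edgeR adjusted p = 0.0108). Nudt7, a peroxisomal hydrolase of coenzyme A, fell by 1.43 ± 0.18 under vehicle and differed by 0.05 ± 0.18 under PFOA, where HFD_PFOA mouse 1 was high at 257 CPM beside 156 to 171 CPM in the other 3, and without that mouse the difference was −0.15. Tm7sf2, an enzyme of cholesterol synthesis, fell by 1.77 ± 0.16 under vehicle and differed by −0.58 ± 0.16 under PFOA (interaction edgeR adjusted p = 0.0341). Acpp, an acid phosphatase, and Adgrv1, an adhesion receptor, differed by −3.09 and 3.73 under vehicle and by −0.70 and 1.12 under PFOA. Ivns1abp, an actin-associated protein, and Apol7a, an apolipoprotein L, differed by 0.75 and −0.72 under vehicle and by −0.23 and 0.30 under PFOA.

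**Figure D4:**
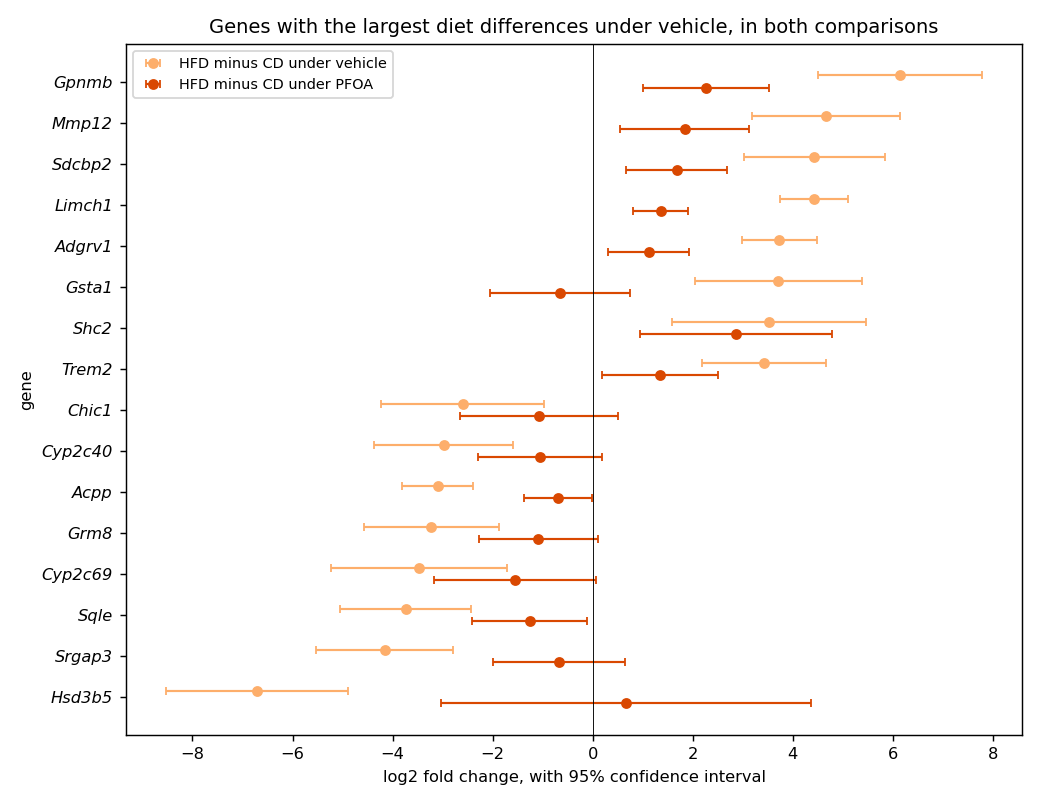
Log2 fold change between the diets with its 95% confidence interval, under vehicle (light) and under PFOA (dark), for the 8 largest rises and 8 largest falls under vehicle among called genes with a mean of at least 1 CPM in the vehicle mice and no overlap there. All 16 vehicle intervals exclude 0 because the genes were chosen there; under PFOA the points lie nearer to 0, with Shc2 close to its vehicle value and Hsd3b5 with an interval from −3.02 to 4.35.

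Of the genes with the largest differences under vehicle at a mean of at least 1 CPM, those of lipid-associated macrophages also stood higher in most high-fat mice under PFOA. Gpnmb, a lysosomal membrane protein of lipid-laden macrophages, measured 5.59, 37.2, 37.2 and 34.1 CPM in HFD_PFOA and 8.81, 7.12, 3.33 and 4.46 CPM in CD_PFOA. HFD_PFOA mouse 1 was at the level of the control diet, and the difference of 2.26 ± 0.60 missed the threshold (edgeR adjusted p = 0.146). Mmp12, the macrophage elastase, showed the same mouse low, with 5.46, 36.3, 19.9 and 35.3 CPM against 5.57, 10.7, 1.85 and 8.997 CPM. Trem2, a lipid-sensing receptor, measured 1.78, 2.87, 1.71 and 3.49 CPM against 0.208, 1.24, 0.632 and 1.80 CPM. Over the list of 16 such markers, 0 were called under PFOA, and 11 rose and 1 fell under vehicle. Of all genes, 0.0600% were called under PFOA, and 5.19% rose and 5.21% fell under vehicle. Of the 16 differences, 14 were positive under PFOA, and the median was 0.75 beside 1.76 under vehicle. The list holds Lpl and Fabp5, which liver cells of other kinds express too. The summed level of all 16 markers was 1016 to 1147 CPM in HFD_PFOA and 914 to 943 CPM in CD_PFOA. More of that sum was Lpl than any other marker, at 571 to 604 CPM in HFD_PFOA and 460 to 518 CPM in CD_PFOA.

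The remaining vehicle rises included Sdcbp2, a scaffold protein, at 12.03, 11.3, 6.46 and 14.0 CPM in HFD_PFOA and 3.20, 5.05, 2.19 and 3.23 CPM in CD_PFOA, without overlap. Shc2, a signalling adaptor, measured 1.36, 1.80, 2.37 and 1.57 CPM against 0.457, 0.124, 0.0843 and 0.286 CPM (2.87 ± 0.92, beside 3.53 ± 0.93 under vehicle). Gsta1, a glutathione transferase with close relatives, rose under vehicle by 3.71 ± 0.80 and differed by −0.65 ± 0.67 under PFOA. Among the falls, Hsd3b5, a male-specific steroid dehydrogenase, went from 41.1 ± 31.4 to 0.373 ± 0.276 CPM under vehicle and was at most 0.313 CPM in every PFOA mouse of both diets. Srgap3 and Grm8 differed by −4.16 and −3.23 under vehicle and by −0.67 and −1.09 under PFOA, and Cyp2c69, Cyp2c40 and Chic1 by −3.48, −2.98 and −2.60 and by −1.55, −1.05 and −1.08.

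Genes of cholesterol synthesis kept their direction at a smaller size. Of 24 members tested, 0 were called under PFOA and 21 fell under vehicle, 1 (Tm7sf2) was called in the interaction, and the median difference was −0.41 under PFOA and −1.19 under vehicle. At an unadjusted p under 0.05, 11 of the 24 were lower under PFOA (5.24% of all genes) and 23 were negative, with Hmgcs1 (0.09) as the exception. These 11 became 15 without CD_PFOA mouse 1 and 8 without HFD_PFOA mouse 1. The mouse medians were −0.17, −0.19, −0.15 and −0.26 in HFD_PFOA and −0.12, 0.20, 0.33 and 0.24 in CD_PFOA, so CD_PFOA mouse 1 lay close to the high-fat mice. Sqle, squalene epoxidase, measured 7.79, 14.8, 15.2 and 13.7 CPM in HFD_PFOA and 16.2, 33.3, 32.3 and 41.6 CPM in CD_PFOA, without overlap (−1.26 ± 0.55, edgeR adjusted p = 0.405).

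Sterol export and bile acid genes were measured beside these. Abca1, which loads cholesterol onto HDL, measured 348, 328, 333 and 322 CPM in HFD_PFOA and 261, 281, 247 and 242 CPM in CD_PFOA, and Abcg1, another sterol exporter, 17.0, 13.7, 16.3 and 19.3 CPM against 12.3, 10.7, 6.87 and 11.2 CPM. In both the diets did not overlap, and in the fit of all 16 libraries 0 of the 10 members of the list of efflux and LXR targets were called. Cyp7a1, which controls the first step from cholesterol to bile acids, measured 3.26, 2.62, 5.52 and 3.76 CPM in HFD_PFOA and 7.97, 17.97, 10.3 and 6.91 CPM in CD_PFOA (−1.50 ± 0.45, edgeR adjusted p = 0.204). Nr0b2, the repressor known to lower Cyp7a1, measured 45.0, 41.8, 34.4 and 42.7 CPM against 27.7, 24.9, 26.9 and 30.3 CPM. The values of Cyp7a1 were lower and those of Nr0b2 higher in every high-fat mouse, without a call in the fit of 16 libraries. Of the 20 bile acid genes tested, 0 were called under PFOA and 8 under vehicle, 4 in each direction. The shares of all genes called were 0.0600% and 10.4%.

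In the fit of 16 libraries no gene of the lists of fat synthesis and of PPARA targets was called under PFOA. That fit called only 9 of 14998 genes (0.0600%), so the absence of a call says little about these lists. Both alternatives called Otop1, 1 of the 23 other PPARA-responsive genes, described below. Of 20 genes of fatty acid synthesis, 0 were called under PFOA, and 2 rose and 10 fell under vehicle, with medians of −0.08 and −0.67; the first became 0.02 with library totals. Fasn, fatty acid synthase, measured 1174, 1297, 1464 and 1424 CPM in HFD_PFOA and 734, 1393, 1979 and 1957 CPM in CD_PFOA (−0.18 ± 0.29, 95% confidence interval −0.79 to 0.43). Scd1, the main desaturase of liver, differed by 0.14 ± 0.14 (interval −0.15 to 0.43) and Srebf1, the regulator of fat synthesis, by 0.27 ± 0.18 (interval −0.10 to 0.64). Of 23 mitochondrial oxidation genes, 0 were called and 0 had an unadjusted p under 0.05 under PFOA, with a median of −0.01 (0.08 with library totals). The other PPARA-linked lists were likewise without a call, with 22 peroxisomal genes with a median of 0.06, 12 genes of omega-oxidation with −0.03 and 23 other PPARA-responsive genes with 0.02. Ehhadh, the peroxisomal bifunctional enzyme, measured 17753, 16489, 15222 and 15372 CPM in HFD_PFOA and 18011, 14115, 14096 and 15410 CPM in CD_PFOA, a difference of 0.07 ± 0.13 with an interval from −0.21 to 0.35. The intervals were −0.42 to 0.22 for Cyp4a10, a fatty acid hydroxylase, and −0.28 to 0.29 for Acot1, a thioesterase. Pdk4, which spares glucose, measured 565, 511, 488 and 466 CPM against 465, 296, 269 and 286 CPM, with CD_PFOA mouse 1 at the edge of the high-fat range (0.63 ± 0.29, not called).

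Among genes of lipid droplets and of PPARG, the largest value was in Cidea, a lipid droplet protein typical of brown fat and fatty liver. Cidea measured 238, 170, 108 and 164 CPM in HFD_PFOA and 61.7, 55.5, 78.1 and 105 CPM in CD_PFOA (1.18 ± 0.37, edgeR adjusted p = 0.221), without overlap. Fabp4, a fatty acid carrier of adipocytes and macrophages chosen after its values were seen, measured 103, 89.1, 75.6 and 116 CPM against 36.5, 47.7, 50.2 and 59.8 CPM (0.98 ± 0.22, edgeR adjusted p = 0.0892). The adipocyte genes Adipoq, Lep, Retn and Plin1 were too low to be tested. Plin2, the coat protein of liver lipid droplets, measured 1776, 2102, 1779 and 1933 CPM against 1760, 1300, 1458 and 1699 CPM (0.29 ± 0.12). Pparg, the fat-storage receptor, Cd36, a fatty acid transporter, and Mogat1, a triglyceride enzyme, differed by −0.20, −0.07 and 0.06, and Cd36 by 0.02 with library totals. Plin4, a further droplet protein, rose by 2.05 ± 0.30 under vehicle and measured 14.6, 14.6, 13.3 and 27.6 CPM in HFD_PFOA and 13.5, 8.24, 12.7 and 10.1 CPM in CD_PFOA. The stress hormone Fgf21 differed by −0.05 ± 0.35, and by 0.04 with library totals. Of the 13 PPARG and steatosis genes tested, 0 were called under PFOA and 8 rose under vehicle. Of all genes, 0.0600% were called under PFOA and 5.19% rose under vehicle.

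A further 3 genes, chosen after their values were seen, missed the threshold in the fit of 16 libraries and were called both by DESeq2 and in the fit of the 8 PFOA libraries. Otop1, a proton channel on the list of other PPARA-responsive genes, was at 0 CPM in all 8 vehicle mice and measured 51.6, 35.4, 27.1 and 54.6 CPM in HFD_PFOA and 21.3, 16.6, 21.3 and 19.5 CPM in CD_PFOA (1.10 ± 0.20, edgeR adjusted p = 0.0843). Fam83b, an adaptor of kinase signalling, measured 13.1, 7.57, 9.57 and 6.35 CPM against 3.57, 2.57, 1.22 and 2.33 CPM (edgeR adjusted p = 0.0559). Scd3, a desaturase related to Scd1, measured 8.56, 35.4, 26.8 and 33.5 CPM against 11.5, 5.47, 6.83 and 6.58 CPM (edgeR adjusted p = 0.0843). The groups overlapped only in Scd3, in which HFD_PFOA mouse 1 was low.

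Extracellular matrix, inflammatory and proliferation genes had positive medians in both comparisons. Of 27 matrix genes, 0 were called under PFOA and 17 rose under vehicle, beside 0.0467% and 5.19% of all genes called higher. Their medians were 0.46 and 1.01, and 25 were positive under PFOA. At an unadjusted p under 0.05, 10 of the 27 were higher under PFOA (5.86% of all genes). These 10 became 14 without CD_PFOA mouse 1 and 9 without HFD_PFOA mouse 1. Col1a1, a chain of fibrillar collagen, measured 33.6, 39.6, 42.6 and 41.4 CPM in HFD_PFOA and 26.9, 24.1, 32.2 and 15.9 CPM in CD_PFOA (0.67 ± 0.27, edgeR adjusted p = 0.356). Col3a1, another fibrillar collagen, measured 71.9, 66.1, 81.8 and 87.0 CPM against 57.9, 46.5, 45.9 and 40.0 CPM. Neither collagen overlapped between the diets. All 20 cytokine and chemokine genes tested were positive (median 0.63 under PFOA and 0.93 under vehicle), with 0 and 4 called. Of 29 cell cycle genes, 0 were called under PFOA and 8 rose under vehicle, with medians of 0.73 and 0.82. Under PFOA 11 of the 29 had an unadjusted p under 0.05 in the higher direction (5.86% of all genes). These became 6 without CD_PFOA mouse 1 and 12 without HFD_PFOA mouse 1. As centred log2 CPM, the list's medians per mouse were −0.12, 0.87, 0.93 and 0.53 in HFD_PFOA. In CD_PFOA they were −0.02, 0.11, −0.01 and −0.09, so HFD_PFOA mouse 1 lay below every control-diet mouse. Mki67, the proliferation marker, measured 12.6, 23.5, 39.9 and 22.1 CPM in HFD_PFOA and 11.2, 12.1, 13.6 and 10.3 CPM in CD_PFOA, with overlap (1.06 ± 0.33, edgeR adjusted p = 0.221). Markers of the cells that express such genes were also measured. Macrophage and Kupffer cell markers summed to 590 to 1148 CPM in HFD_PFOA and 355 to 777 CPM in CD_PFOA, with Lyz1 not tested, and stellate cell markers to 594 to 805 CPM and 597 to 805 CPM. Of 11 cholangiocyte markers tested, 0 were called, and their sum was 411 to 505 CPM in HFD_PFOA and 338 to 351 CPM in CD_PFOA. Most of that sum was Krt18 and Krt8, with 21273 and 14018 counts over the HFD_PFOA mice and 16099 and 10595 over the CD_PFOA mice. Krt19 had 77 and 48 counts in HFD_PFOA and CD_PFOA, Krt7 had 37 and 25, and Epcam had 190 and 138. Of the 11 differences, 9 were positive and 2 negative. The part of these cells in the gene values was not tested.

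Hepatocyte genes had mostly negative values. Of 30 genes of the urea cycle and amino acid breakdown, 0 were called under PFOA and 17 fell under vehicle, with medians of −0.28 and −0.57. Under PFOA 29 of them were negative, and 7 had an unadjusted p under 0.05 in the lower direction (13 without CD_PFOA mouse 1 and 12 without HFD_PFOA mouse 1). Of 14 hepatocyte markers tested, 0 were called under PFOA and 9 fell under vehicle. Their median under PFOA was −0.28, the same as for the urea cycle list, with 12 negative and 6 lower at an unadjusted p under 0.05. For both lists, the share of all genes lower at that unadjusted p was 5.24%. Ahsg, a secreted plasma protein, measured 2682, 2294, 2335 and 2333 CPM in HFD_PFOA and 3150, 3135, 3095 and 3054 CPM in CD_PFOA, a difference of −0.37. Acute phase genes had a median of −0.12 under PFOA and −0.73 under vehicle, with 0 of 24 called under PFOA and 7 lower under vehicle. As centred log2 CPM, the list's medians per mouse were 1.80, 0.01, −0.04 and 0.27 in CD_vehicle. In HFD_vehicle they were 0.14, 0.41, 0.25 and 0.32. CD_vehicle mouse 1 stood apart, and the rest of its group overlapped the high-fat mice. Saa1, an acute phase protein, measured 29.7, 9.62, 11.4 and 11.3 CPM in HFD_PFOA. It measured 10.4, 22.7, 14.7 and 8.10 CPM in CD_PFOA, so the diets overlapped there. Complement and coagulation genes had medians of −0.10 and −0.39, with 0 of 33 called under PFOA and 17 lower under vehicle.

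Sex-biased liver genes depend on the pattern of growth hormone release. Of 22 male-biased genes, 0 were called under PFOA, and 1 rose and 9 fell under vehicle, with medians of 0.01 and −1.43. The median under PFOA rested on 1 mouse: HFD_PFOA mouse 1 stood at 0.69 and the other 3 at −1.16 to −0.73, and without that mouse the median difference was −0.43. Of 18 female-biased genes, 0 were called under PFOA with a median of −0.62, 15 were negative, and 2 rose and 4 fell under vehicle with a median of −0.34. Prlr, the prolactin receptor, measured 45.5, 29.5, 28.5 and 17.5 CPM in HFD_PFOA and 52.2, 57.8, 59.3 and 57.9 CPM in CD_PFOA, without overlap (−0.91). Genes of the Mup, Cyp2c and Cyp2b families have close relatives whose reads cannot be fully told apart.

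**Figure D5:**
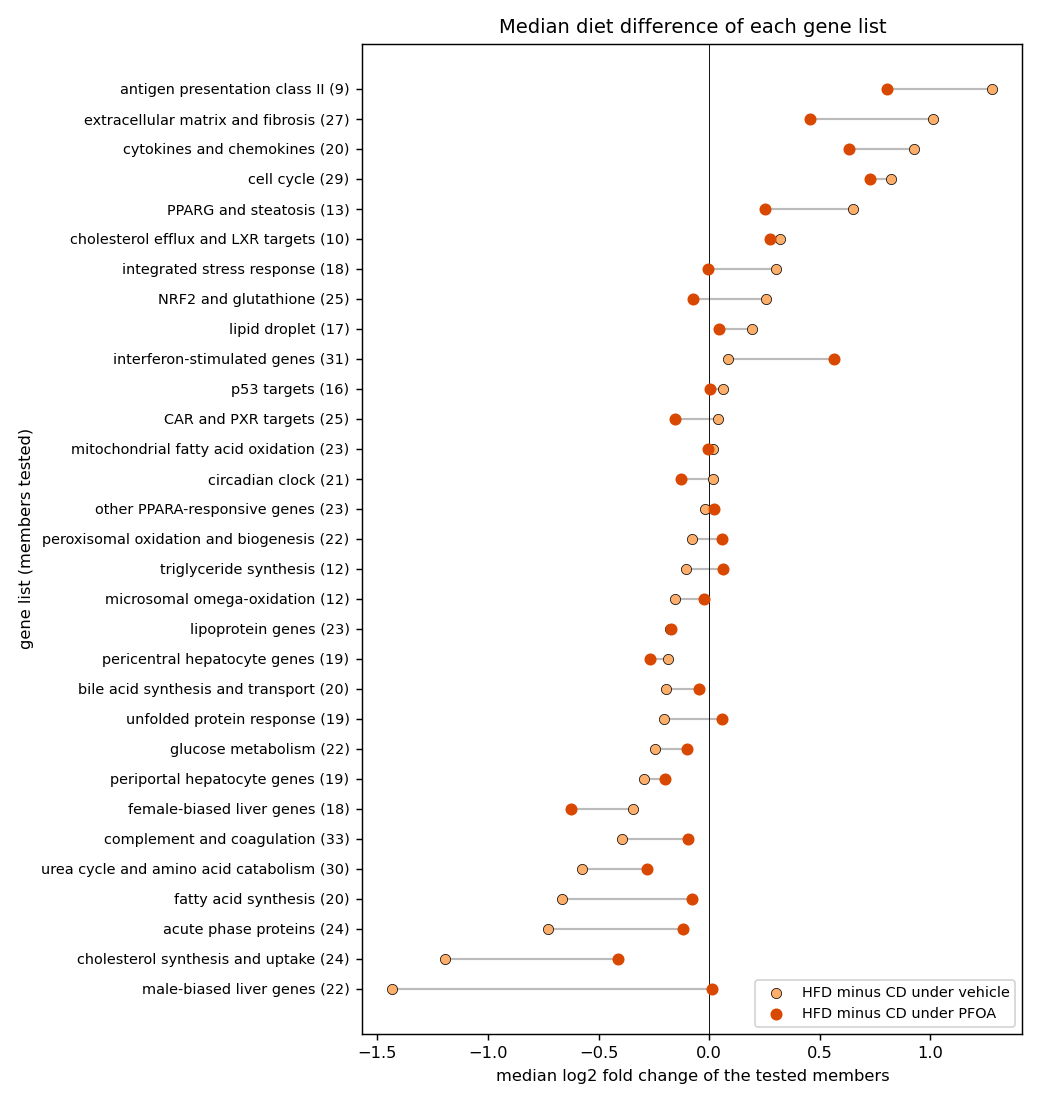
Median log2 fold change between the diets of the tested members of each pathway list (number tested in brackets), under vehicle (light) and under PFOA (dark), ordered by the vehicle value. The interferon-stimulated genes go from 0.09 under vehicle to 0.56 under PFOA and the male-biased genes from −1.43 to 0.01; the latter rests on HFD_PFOA mouse 1.

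The fit of the 8 PFOA libraries alone, listed as an alternative, used its own spread and called 129 genes (0.924%), 75 higher and 54 lower, among them all 9 calls above. Of these, 76 were also called by DESeq2 with 16 libraries, and 73 had been called under vehicle, all 73 in the same direction. By list it called 6 of 31 interferon-stimulated genes higher (Irf7, Gbp2, Ifih1, Ifit3, Ifi44 and Psmb9) and 5 of 24 cholesterol genes lower (Sqle, Nsdhl, Cyp51, Hsd17b7 and Msmo1). It also called 3 of 10 efflux genes higher (Abca1, Abcg5 and Abcg8), 3 of 27 matrix genes higher (Col3a1, Col6a1 and Col6a2) and 4 of 25 CAR and PXR targets lower (Cyp2b9, Cyp2a4, Cyp2a5 and Alas1). DESeq2 with 16 libraries called 5 of these 6 interferon-stimulated genes (not Gbp2) and Abca1, and none of the 5 cholesterol genes, the 3 matrix genes, the 4 CAR and PXR targets or Abcg5 and Abcg8. Cyp7a1 (−1.50 ± 0.30, edgeR adjusted p = 0.0339), Gpnmb (2.27 ± 0.44, edgeR adjusted p = 0.0308), Cidea (1.18 ± 0.21, edgeR adjusted p = 0.0198) and Cidec (0.34 ± 0.07, edgeR adjusted p = 0.0430) were called there and not by DESeq2, whose adjusted p was 0.114, 0.257, 0.190 and 0.752. Otop1, Fam83b, Scd3, Limch1, Fabp4, Irf7, Prlr, Ahsg and Nr0b2 were called by both. The median SD of log2 CPM within a group was 0.322 in CD_vehicle, 0.215 in HFD_vehicle, 0.257 in CD_PFOA and 0.229 in HFD_PFOA, and its part in the number of calls was not tested.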

How the data were processed

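Whole-liver RNA of 16 mice, 4 in each of 4 groups, was sequenced as non-stranded libraries, per the labels' protocols. The authors deposited raw gene counts. The submitters' processing notes name bcl2fastq 2.20.0.422, Trimmomatic 0.33, STAR 2.5.2b, featureCounts of Subread 1.6.0 and GRCm38, with no annotation release. Without strand, reads of overlapping antisense genes cannot be told apart. The labels' replicate numbers follow accession order and pair no mice, and the series design calls every animal a separate biological replicate.

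From the counts, 1 edgeR 4.0.16 quasi-likelihood fit over all 16 libraries (filterByExpr, TMM scaling, R 4.3.3) gave the diet difference under PFOA, under vehicle and their interaction, with Benjamini-Hochberg adjustment over 14998 genes and 12 residual degrees of freedom. No replicate pair looked like 1 library deposited in duplicate (chi-square per degree of freedom 8.33 to 146). Scripts were tested on simulated data. Alternatives were DESeq2 1.42.0, other scalings and filters, fits of 8 libraries and leaving out each mouse (without the filter on low counts, 225 genes were called under PFOA).

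Named genes were all calls under PFOA, the largest vehicle differences among genes with a mean of at least 1 CPM and no overlap, the leading interaction genes and a set of index genes. Members and lists were chosen with earlier results of these data known, and other list members named as examples were chosen after their values were seen. Counts without CD_PFOA mouse 1 or HFD_PFOA mouse 1 were also added after seeing the data. Positions are from GENCODE M21, which held an identical ID for 50604 of 53465 genes of the table, and promoters are from RefSeq. Some list members are not reported here by name.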

Additional observations from a re-analysis of the deposited data

Results flagged for a closer look

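Only HFD_PFOA and CD_PFOA, not the vehicle groups, were screened for single mice standing apart, where chance gives about 1 in 20. In 200 groups of 4 mice looked at, 14 had 1 mouse further from the rest than Dixon's 95% critical value allows. Of these, 7 were HFD_PFOA mouse 1. That mouse was high for Cyp3a11 (5942 CPM), Nudt7 (257 CPM) and Saa1 (29.7 CPM) and low for Gpnmb (5.59 CPM) and Parp14 (38.1 CPM). It was also high for the medians of the acute phase list (−0.12) and the complement list (−0.070), both as centred log2 CPM. CD_PFOA mouse 1 stood apart for Pdk4 (465 CPM) and for the medians of the glucose metabolism (−0.56) and B cell (0.54) lists. CD_PFOA mouse 2 stood apart for Hbb-bs (2.19 CPM) and the omega-oxidation list (median 0.83), HFD_PFOA mouse 3 for Cyp2c40 (4.47 CPM) and HFD_PFOA mouse 4 for Plin4 (27.6 CPM).

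The diet difference under PFOA minus that under vehicle passed the interaction test in edgeR for 13 of the named genes. It was negative for Limch1 (−3.07), Adgrv1 (−2.61), Cidec (−2.38), Lpl (−1.63), Cyp3a11 (−1.49), Ivns1abp (−0.98) and Ephx1 (−0.83). It was positive for Fabp5 (2.58), Acpp (2.40), Nudt7 (1.48), Tm7sf2 (1.19), Apol7a (1.02) and Elovl2 (0.96).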

How the results depend on the processing

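The number of calls depended on the method. Under PFOA the 9 calls became 179 with DESeq2, 2.2e+02 without a filter on low counts, 129 with the 8 PFOA libraries alone and 1 to 22 when 1 mouse was left out. Under vehicle the 1561 calls became 896 with the 8 vehicle libraries alone, and 881 (without HFD_vehicle mouse 4) to 2272 (without CD_vehicle mouse 4). The 31 interaction calls became 223 with DESeq2, 290 without the filter and 13 to 352 when 1 mouse was left out. The cause was not tested. All 9 calls under PFOA kept their direction in every alternative run. With library totals the log2 difference under PFOA changed sign for Cd36 (0.022), Ephx1 (0.031) and Fgf21 (0.038). When 1 mouse was left out it changed sign for Acot1 (−0.042 to 0.044), Fabp5 (−0.067 to 0.32), Fgf21 (−0.29 to 0.15), Mogat1 (−0.021 to 0.15), Nudt7 (−0.15 to 0.12) and Saa1 (−0.38 to 0.49). No paired analysis was possible because the replicate numbers follow accession order and pair no mice.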
